A study of Mus musculus with 6 samples.

Results

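The genes described here encode glycoproteins, proteoglycans and laminins of the extracellular matrix, together with the enzymes that cross-link it. They were chosen by name, as 51 gene symbols, and all 51 were found among the 18507 genes of the deposited table. Of these, 13 were assigned to basement membranes and the other 38 to the interstitial matrix, although some, such as Fbln2, have a place in both. RNA was sequenced from interscapular brown adipose tissue of mice on a C57BL/6 background in 6 libraries. The group Beclin1_KO holds 3 mice of genotype Beclin1-/-, which the series title describes as a knockout restricted to adipocytes. The group WT holds 3 wild-type mice. Both groups were given tamoxifen at 75 mg/kg by gavage for 5 days in a row to start Cre recombination, and a separate tag calls every sample untreated. Housing was at 22 °C, with a chow diet and 12 h of light. The promoter that drives Cre, and the age and sex of the mice, are not given in the sources used here. Whole tissue was sequenced, so each library also holds RNA of the cells that are not adipocytes.

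Basement membranes are thin sheets that wrap adipocytes, capillaries, nerve and muscle fibres. Their frame is a network of laminins, each built of an alpha, a beta and a gamma chain, which nidogens and the proteoglycan perlecan join to type IV collagen. The interstitial matrix between cells is made mostly by fibroblasts. It contains fibronectin, small leucine-rich proteoglycans that bind collagen fibrils, elastic fibres with their microfibrils, and matricellular proteins that regulate cells more than they bear load. In adipose tissue each adipocyte carries its own basement membrane, and thickened interstitial matrix is a feature of fibrosis.

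The libraries held 50536315, 53789848 and 60983193 counts in Beclin1_KO and 44269031, 50219212 and 50842488 counts in WT. Levels are given as CPM (counts per 1e+06 of a library, after TMM scaling) unless FPKM is named. Becn1, the targeted gene, stood at 58.0, 53.7 and 42.7 CPM in Beclin1_KO, against 82.8, 86.4 and 89.2 CPM in WT (log2 fold change -0.74, SE 0.13, adjusted p = 0.00411). Ucp1, the defining gene of brown adipocytes, ranged over 1325 to 2750 CPM in Beclin1_KO and 8075 to 11649 CPM in WT. Among 10 adipocyte markers, 8 fell and 2 did not pass, with summed levels of 7278 to 13178 CPM in Beclin1_KO and 27231 to 31791 CPM in WT. All 12 macrophage markers rose, with sums of 4559 to 7344 CPM in Beclin1_KO and 266 to 307 CPM in WT. Of 10 fibroblast and progenitor markers, 8 rose, Pi16 did not pass and Tcf21 was at or near 0, with sums of 3650 to 4847 CPM in Beclin1_KO and 1702 to 1935 CPM in WT. Most of these sums came from Gsn, with 2588, 3539 and 3367 CPM in Beclin1_KO and 1653, 1458 and 1411 CPM in WT. The median log2 fold change of the 9 markers tested was 2.13. Of 10 endothelial markers, 9 fell and Pecam1 did not pass, with sums of 907 to 1147 CPM in Beclin1_KO and 1722 to 2067 CPM in WT. Mural cell markers gave 1 rise (Pdgfrb), 4 falls and 5 that did not pass, with sums of 834 to 958 CPM in Beclin1_KO and 1285 to 1521 CPM in WT. Lymphocyte markers gave 7 rises, 2 falls and 1 that did not pass, with sums of 35.8 to 62.1 CPM in Beclin1_KO and 6.15 to 10.04 CPM in WT. Schwann cell markers gave 1 rise, 1 fall, 7 that did not pass and 1 too low to test, with sums of 142 to 198 CPM in Beclin1_KO and 166 to 222 CPM in WT. Of the tendon and cartilage list, 5 of 8 genes were in the deposited table. Sox9 rose and Scx did not pass, while Col2a1, Mkx and Tnmd stood at 0 to 1.33 CPM in each library. Of the epithelial and mesothelial list, 5 of 8 genes were in the deposited table, and none of these exceeded 0.671 CPM in any library. The 16 skeletal muscle markers summed to 43573, 10471 and 2000 CPM in Beclin1_KO and to 783, 22981 and 1582 CPM in WT. Beclin1_KO replicate 1 and WT replicate 2 were thus the libraries richest in muscle RNA.

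Most interstitial matrix transcripts were higher in Beclin1_KO, and basement membrane transcripts were less uniform. In the fit across all genes, 37 of the 51 genes rose at an adjusted p below 0.05, 2 fell (Lama5 and Ltbp2) and 12 did not pass. Of all 15347 genes tested, 24.8% rose and 21.8% fell, 46.6% in all. Among the 38 interstitial genes 31 rose, Ltbp2 fell and 6 did not pass. The 13 basement membrane genes divided differently, with 6 that rose, 1 that fell (Lama5) and 6 that did not pass. The median log2 fold change was 2.01 for the interstitial genes, 0.69 for the basement membrane genes and 0.05 for all genes tested. These counts and medians are descriptions, and no test compared the compartments. At least 2-fold rises that passed were seen for 27 interstitial and 4 basement membrane genes, against 17.4% of all genes. For 43 of the 51 genes the groups had no overlap, 40 higher and 3 lower in Beclin1_KO, against 59.7% without overlap over all genes, 31.4% higher and 28.2% lower. Frem1, Mfap4 and Comp met the low-count filter through the Beclin1_KO libraries alone, so a higher level there was nearly fixed in advance. They are kept in the counts above, Frem1 and Comp among the rises of at least 2-fold, and all 3 among the genes without overlap. The same tissue had more fibroblast and macrophage marker RNA and less endothelial marker RNA, and the part of these cell types in the result was not tested. In whole tissue, more cells of a type and more RNA per cell cannot be told apart.

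**Figure D1:**
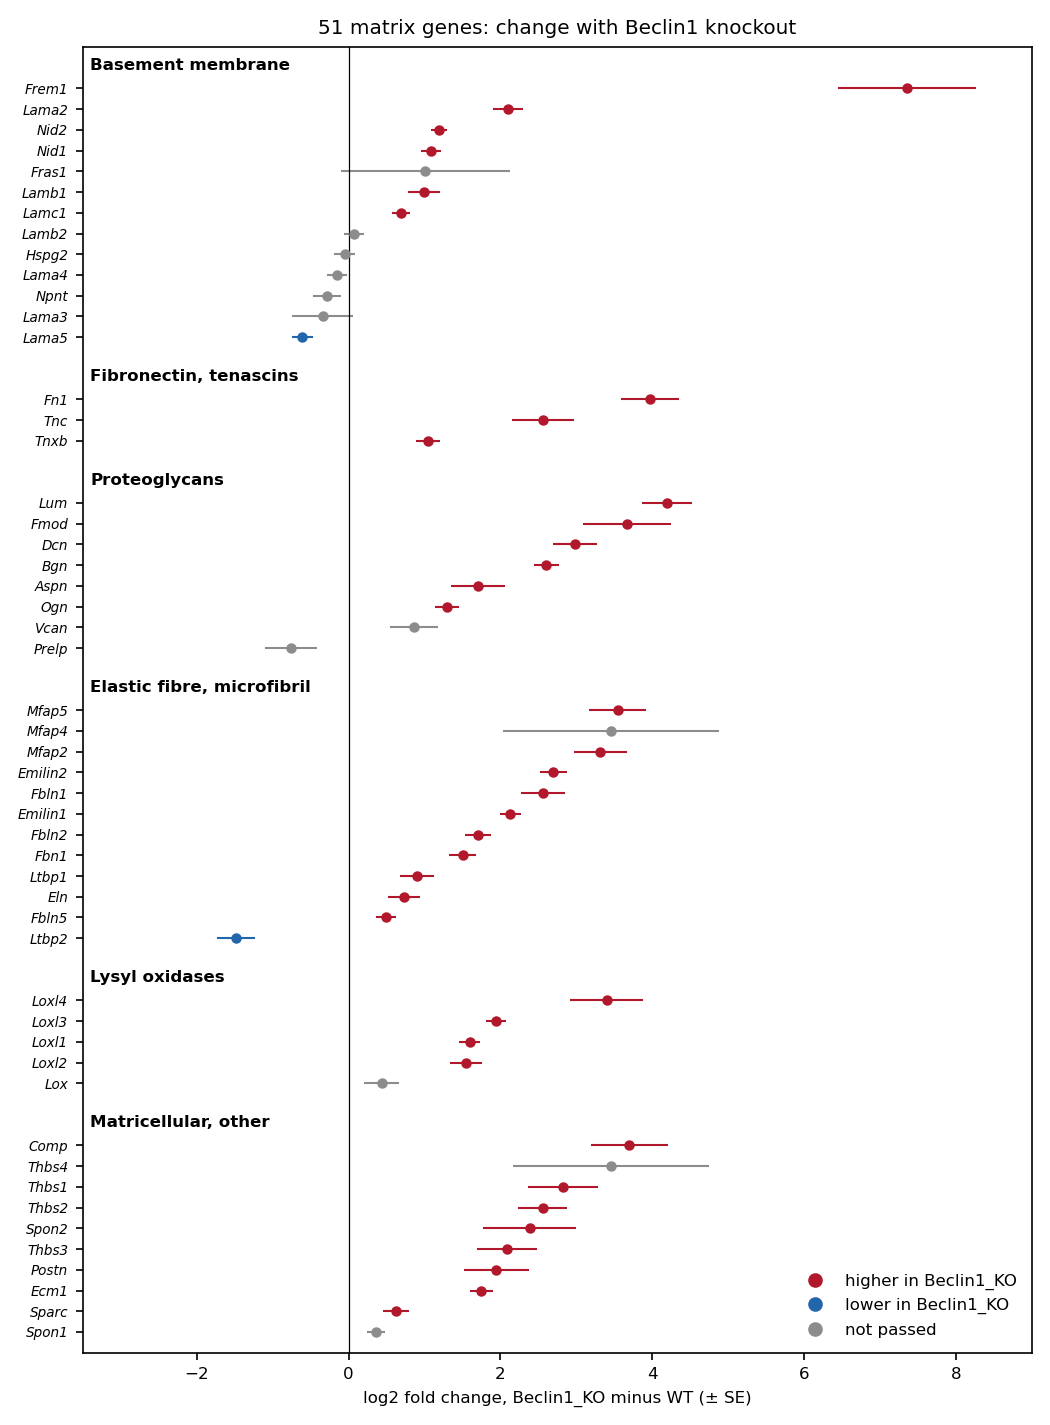
Log2 fold change of each of the 51 genes, Beclin1_KO minus WT, with its SE (horizontal axis), grouped by structural role. Red points rose, blue points fell and grey points did not pass at an adjusted p of 0.05; the basement membrane genes lie nearer to 0 than most others, apart from Frem1 (7.35) and Lama2 (2.1).

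Summed by compartment, the interstitial genes reached 2892, 3365 and 2021 FPKM in Beclin1_KO, against 706, 662 and 641 FPKM in WT. FPKM is the deposited measure, scaled by transcript length and fragments per library, and is the scale on which different genes can be added. The basement membrane genes summed to 347, 412 and 378 FPKM in Beclin1_KO and to 235, 197 and 188 FPKM in WT. Neither sum overlapped between the groups. FPKM is not corrected for the composition of a library, and the FPKM fit placed genes 0.32 higher in log2 fold change (median over genes) than the CPM fit. The proportion between compartments within a library does not depend on that scaling. Basement membrane genes made up 10.7%, 10.9% and 15.8% of the summed FPKM of the 51 genes in Beclin1_KO, against 25%, 22.9% and 22.6% in WT. Interstitial FPKM thus exceeded basement membrane FPKM by 8.34, 8.16 and 5.35 times in Beclin1_KO, against 3.0, 3.36 and 3.42 times in WT. Beclin1_KO replicate 3 lay nearest to WT, and its interstitial genes were the lowest of the 3 knockout libraries in 29 of 38 cases. That library also had the least muscle RNA and the most adipocyte marker RNA of its group, and their part in its values was not tested. The muscle-richest library of each group was most often the highest for the 38 interstitial genes. For Beclin1_KO replicate 1 this held in 22 cases and for WT replicate 2 in 25 cases.

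**Figure D2:**
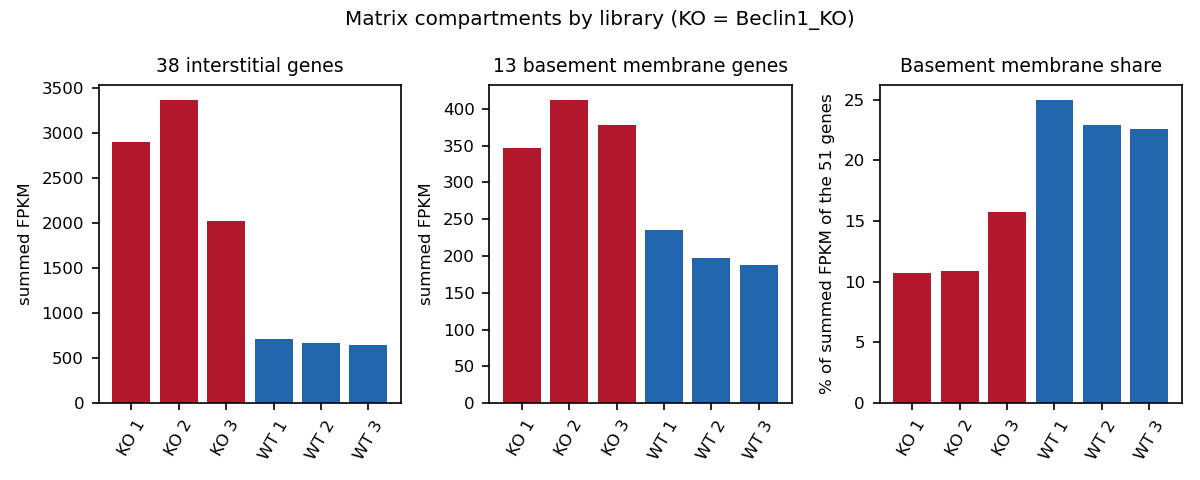
Summed FPKM of the 38 interstitial genes, of the 13 basement membrane genes, and the basement membrane share of both in percent, 1 bar per library (red Beclin1_KO, blue WT). The share is 10.7% to 15.8% in Beclin1_KO and 22.6% to 25% in WT.

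All 3 genes of fibronectin and the tenascins rose. Fn1, which encodes fibronectin, a scaffold that cells assemble first in new matrix, had 929, 860 and 394 CPM in Beclin1_KO, against 35.8, 52.3 and 51.7 CPM in WT. Its level in the lowest knockout library was several times that of the highest WT library. It rose 15.6-fold (log2 fold change 3.97, SE 0.38, adjusted p = 0.000391). Tenascin C, Tnc, a glycoprotein of healing and inflamed tissue, had 143, 128 and 109 CPM in Beclin1_KO and 31.5, 22.6 and 10.2 CPM in WT (log2 fold change 2.56, SE 0.41, adjusted p = 0.00354). Tenascin X, Tnxb, which links collagen fibrils in loose connective tissue, had 284, 309 and 228 CPM in Beclin1_KO and 152, 125 and 122 CPM in WT. It rose 2.06-fold (log2 fold change 1.04, SE 0.16, adjusted p = 0.00237), the smallest rise of the 3. On the FPKM scale Fn1 stood above Tnxb in Beclin1_KO, at 101 ± 40.8 and 31.8 ± 5.85 FPKM. In WT the order was the opposite, with Fn1 at 5.08 ± 0.819 and Tnxb at 12.1 ± 2.14 FPKM (SD, n = 3 each).

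Of the 8 proteoglycan genes, 6 rose and Prelp and Vcan did not pass. Decorin, Dcn, a small leucine-rich proteoglycan that binds collagen fibrils and controls their width, had 1069, 1319 and 668 CPM in Beclin1_KO, against 152, 129 and 106 CPM in WT (log2 fold change 2.98, SE 0.29, adjusted p = 0.000405). Biglycan, Bgn, its nearest relative, had 728, 610 and 546 CPM in Beclin1_KO and 96.3, 115 and 98.7 CPM in WT (log2 fold change 2.61, SE 0.16, adjusted p = 9.7e-05). Both genes rose, 7.91-fold and 6.08-fold, and their groups lay far apart. Lumican, Lum, a keratan sulfate proteoglycan of collagen fibrils, had 577, 614 and 298 CPM in Beclin1_KO and 22.3, 31.9 and 27.0 CPM in WT. The groups were far apart, and its 18.4-fold rise (log2 fold change 4.2, SE 0.33, adjusted p = 0.000191) was the largest of the proteoglycans. Fibromodulin, Fmod, a close relative of lumican, rose 12.7-fold at a low level, with 5.35 to 22.4 CPM in Beclin1_KO and 0.797 to 1.52 CPM in WT. Osteoglycin, Ogn, rose 2.45-fold. Asporin, Aspn, rose 3.25-fold (adjusted p = 0.0097), a call lost without the muscle-richest library of each group (adjusted p = 0.0567).

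Prelp, which encodes prolargin, a leucine-rich protein that binds both perlecan and collagen, differed from its relatives. It had 188, 193 and 398 CPM in Beclin1_KO, against 446, 326 and 549 CPM in WT. The groups overlapped through Beclin1_KO replicate 3, and the gene did not pass (log2 fold change -0.76, SE 0.35, adjusted p = 0.118). Without that library the log2 fold change was -1.21 and the adjusted p 0.00767. Within the summed FPKM of the 8 proteoglycans, Prelp held 6.90% ± 5.01 in Beclin1_KO and 46.1% ± 8.50 in WT (SD, n = 3 each). Decorin held 46.5% ± 5.17 in Beclin1_KO and 26.6% ± 5.30 in WT, and lumican 19.96% ± 3.02 in Beclin1_KO and 5.02% ± 1.28 in WT. These shares are descriptions without a test. Versican, Vcan, the large hyaluronan-binding proteoglycan, had 12.1 to 23.6 CPM in Beclin1_KO and 6.89 to 13 CPM in WT, with overlap (adjusted p = 0.0627). It passed with DESeq2 (adjusted p = 0.0243), on the FPKM scale (0.0267 and 0.0275) and without Beclin1_KO replicate 3 (0.0206). These were 4 of 19 alternatives, over which the adjusted p ranged from 0.0206 to 0.17.

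Elastic fibre and microfibril genes rose in 10 of 12 cases, Ltbp2 fell and Mfap4 did not pass. The microfibril-associated glycoprotein gene Mfap5 had 101, 106 and 43.3 CPM in Beclin1_KO, against 5.87, 8.01 and 7.60 CPM in WT, an 11.7-fold rise (log2 fold change 3.54, SE 0.38, adjusted p = 0.000722). Its partner Mfap2 rose 9.94-fold. Emilin1, an elastin-associated glycoprotein, had 66.7, 72.3 and 64.7 CPM in Beclin1_KO and 14.5, 18.3 and 13.8 CPM in WT (log2 fold change 2.13, SE 0.14, adjusted p = 0.000103). Emilin2 had 53.4, 44.6 and 41.5 CPM in Beclin1_KO and 5.77, 7.83 and 7.93 CPM in WT (log2 fold change 2.70, SE 0.18, adjusted p = 0.000106). Both emilins were tight within each group. Fibulin 2, Fbln2, which bridges elastic fibres and basement membranes, had 223, 174 and 151 CPM in Beclin1_KO and 55.3, 63.0 and 50.01 CPM in WT (log2 fold change 1.70, SE 0.18, adjusted p = 0.000494). Fibulin 1, Fbln1, rose 5.89-fold and fibrillin 1, Fbn1, the main strand of microfibrils, 2.83-fold.

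The core elastic fibre genes rose by less. Elastin, Eln, had 138, 99.3 and 120 CPM in Beclin1_KO and 60.3, 93.2 and 62.6 CPM in WT, a 1.66-fold rise (adjusted p = 0.0272). Fibulin 5, Fbln5, needed to assemble elastin on microfibrils, rose 1.41-fold (adjusted p = 0.0191). Eln did not pass when Beclin1_KO replicate 1 (adjusted p = 0.0763), Beclin1_KO replicate 3 (0.0576), WT replicate 1 (0.102) or WT replicate 3 (0.11) was left out. Fbln5 did not pass without WT replicate 1 (0.075), WT replicate 3 (0.0828) or Beclin1_KO replicate 2 (0.057). Mfap4 had 21.8, 19.1 and 4.40 CPM in Beclin1_KO and 0, 2.72 and 1.40 CPM in WT, without overlap. It did not pass (log2 fold change 3.45, SE 1.42, adjusted p = 0.104), but did in 4 of 19 alternatives, with adjusted p-values of 0.00987 to 0.232 over them.

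Latent TGF-beta binding proteins hold the latent growth factor in the matrix, except the protein of Ltbp2, which does not bind it and associates with microfibrils. Ltbp2 had 57.0, 46.8 and 54.7 CPM in Beclin1_KO, against 94.9, 181 and 168 CPM in WT. The groups did not overlap, and the 2.80-fold fall (log2 fold change -1.49, SE 0.25, adjusted p = 0.00329) was the larger of the pair that fell. It also passed on the FPKM scale, at a log2 fold change of -1.01 with a pseudocount of 1. Ltbp1 had 13.8 to 22.5 CPM in Beclin1_KO and 7.91 to 11.6 CPM in WT, a 1.87-fold rise (adjusted p = 0.0158). Leaving out WT replicate 1 gave an adjusted p of 0.0587, leaving out WT replicate 3 gave 0.0639, and leaving out Beclin1_KO replicate 2 gave 0.0532. The 2 further genes of the family, not members of the list, fell in the count fit. Ltbp3 had 207 ± 10.2 CPM in Beclin1_KO and 406 ± 70.6 CPM in WT (SD, n = 3 each). Ltbp4 had 173 ± 12.6 CPM in Beclin1_KO and 227 ± 22.8 CPM in WT (adjusted p = 0.0398). In FPKM, however, the groups of Ltbp4 overlapped, at 37.7 ± 2.98 in Beclin1_KO and 38.5 ± 1.51 in WT. Of the 4 genes, Ltbp1 was the 1 that rose.

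**Figure D3:**
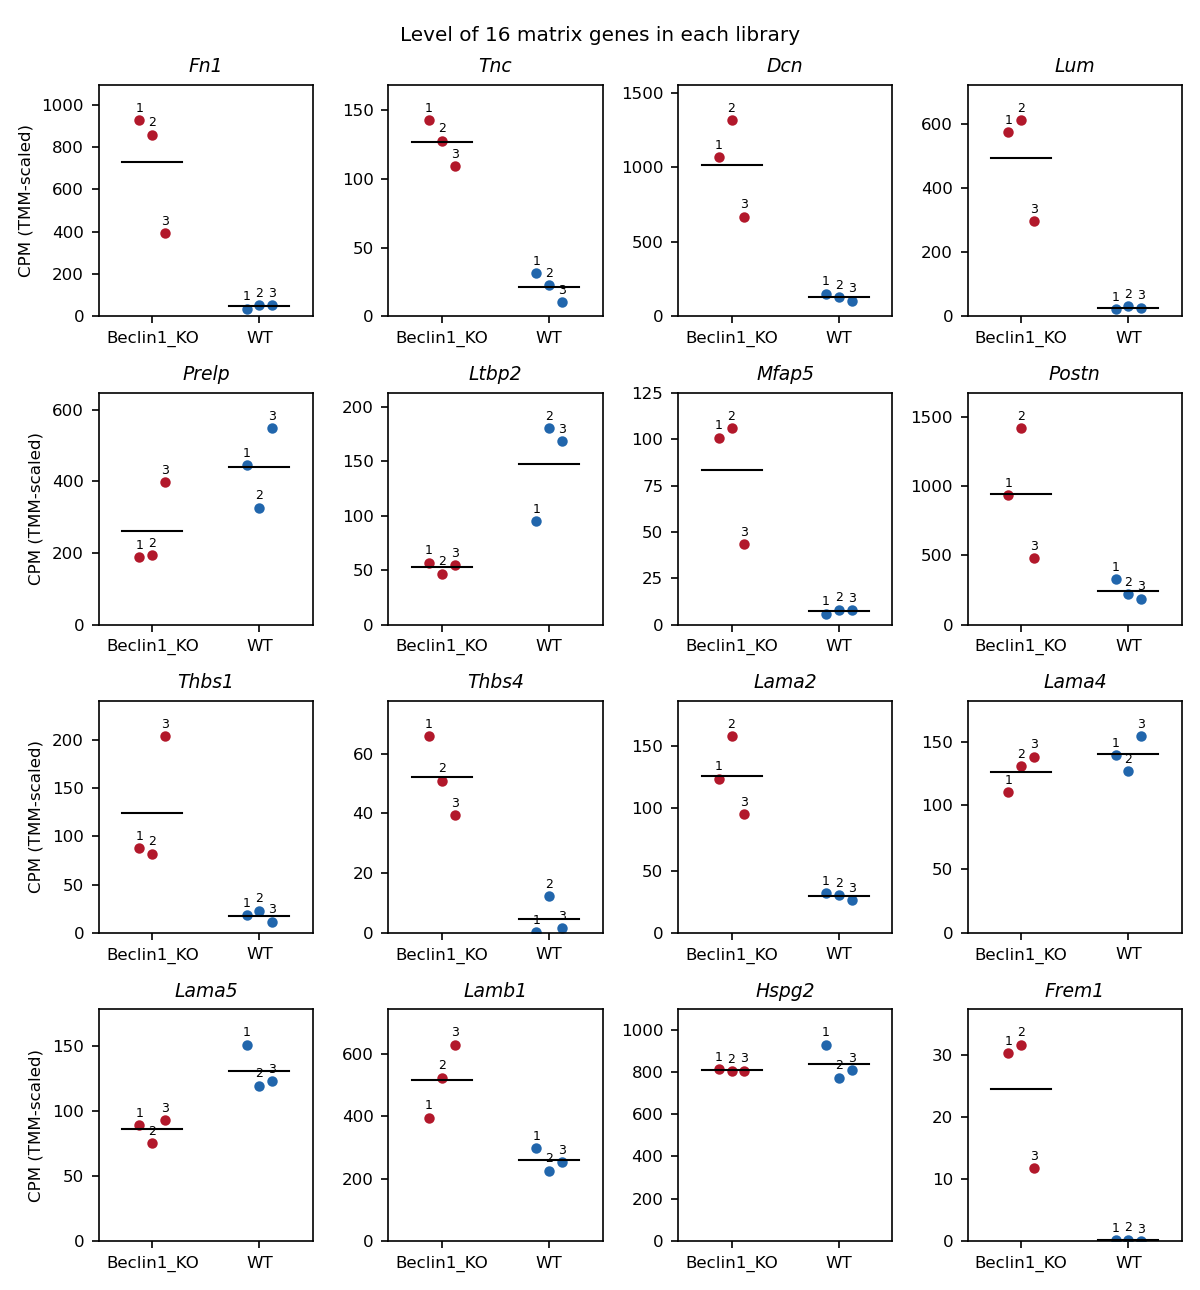
Level of 16 of the genes in each library as TMM-scaled CPM (vertical axis from 0, replicate numbers beside the points, lines at group means), with Beclin1_KO on the left and WT on the right of each panel. Fn1, Dcn and Lum stand far above WT in all 3 knockout libraries, Hspg2 and Lama4 overlap between the groups, and Ltbp2 and Lama5 lie lower in Beclin1_KO.

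Lysyl oxidases are copper enzymes that cross-link collagen and elastin, and 4 of the 5 genes rose. Loxl1, which acts on elastin, had 253, 217 and 259 CPM in Beclin1_KO and 91.8, 74.7 and 74.4 CPM in WT (log2 fold change 1.60, SE 0.14, adjusted p = 0.000263). Loxl2, which cross-links type IV collagen, had 118, 117 and 72.7 CPM in Beclin1_KO and 34.2, 40.4 and 30.7 CPM in WT (log2 fold change 1.55, SE 0.22, adjusted p = 0.0016). Loxl3 had 31.3, 35.8 and 29.2 CPM in Beclin1_KO and 9.18, 7.90 and 8.07 CPM in WT (log2 fold change 1.94, SE 0.13, adjusted p = 0.000112). In all 3 genes the groups were well apart, with rises of 3.03-fold, 2.92-fold and 3.83-fold. Loxl4 rose 10.5-fold at a low level, with 3.50, 4.18 and 9.22 CPM in Beclin1_KO and 0.402 to 0.701 CPM in WT. Lox itself, the founding enzyme, had 41.9, 23.7 and 40.2 CPM in Beclin1_KO and 23.4, 26.2 and 28.8 CPM in WT. Its groups overlapped through Beclin1_KO replicate 2 and it did not pass (log2 fold change 0.43, SE 0.22, adjusted p = 0.158). Without that library it passed (log2 fold change 0.65, adjusted p = 0.0143), as it did on the FPKM scale (0.0231 and 0.022). It passed in 3 of 19 alternatives, with adjusted p-values of 0.0143 to 0.47 over them. Loxl1 carried most of the summed lysyl oxidase FPKM in both groups, 66.9% ± 4.02 in Beclin1_KO and 62.6% ± 3.61 in WT (SD, n = 3 each).

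Matricellular and related secreted genes rose in 8 of 10 cases, and Thbs4 and Spon1 did not pass. Sparc, a collagen-binding glycoprotein, had 1145, 1136 and 908 CPM in Beclin1_KO, against 623, 673 and 774 CPM in WT. It rose 1.54-fold (log2 fold change 0.62, SE 0.17, adjusted p = 0.0204). Sparc did not pass when 1 library was left out, with an adjusted p of 0.0612 for Beclin1_KO replicate 1, 0.066 for Beclin1_KO replicate 2, 0.0875 for WT replicate 1 and 0.0826 for WT replicate 2. Without the muscle-richest library of each group it was 0.171. Periostin, Postn, a matrix protein of remodelling connective tissue, had 934, 1420 and 482 CPM in Beclin1_KO and 329, 219 and 188 CPM in WT. The knockout libraries spread widely, but each lay above the highest WT library, and the log2 fold change was 1.95 (SE 0.42, adjusted p = 0.00998). Without the muscle-richest library of each group it was 1.88 and the adjusted p 0.0683. Ecm1, a secreted glycoprotein that binds other matrix proteins, had 101, 97.7 and 79.8 CPM in Beclin1_KO and 29.2, 30.7 and 23.1 CPM in WT (log2 fold change 1.75, SE 0.15, adjusted p = 0.000271).

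Thrombospondins are calcium-binding glycoproteins, of which those of Thbs1 and Thbs2 inhibit blood vessel growth. Thbs2 had 112, 62.3 and 48.2 CPM in Beclin1_KO and 11.9, 13.7 and 12.1 CPM in WT (log2 fold change 2.56, SE 0.32, adjusted p = 0.00123). Thbs1 had 87.4, 82.0 and 204 CPM in Beclin1_KO and 18.1, 23.0 and 11.6 CPM in WT (log2 fold change 2.82, SE 0.46, adjusted p = 0.00411). The order of the knockout libraries differed between the genes: Beclin1_KO replicate 3 was highest for Thbs1 and lowest for Thbs2. Thbs3 rose 4.23-fold, and Comp, the cartilage thrombospondin, rose 13-fold, with 1.27 to 1.9 CPM in Beclin1_KO and 0.0483 to 0.156 CPM in WT. The fold of Comp rests on few counts, 70, 92 and 129 in Beclin1_KO and 2, 7 and 6 in WT. Thbs4, a thrombospondin of tendon and muscle, had 65.9, 51 and 39.4 CPM in Beclin1_KO and 0.290, 12.3 and 1.66 CPM in WT. It did not pass (log2 fold change 3.46, SE 1.29, adjusted p = 0.081), although its groups did not overlap. The muscle-rich WT replicate 2 was the highest of its group, and without the muscle-richest library of each group the log2 fold change was 5.53 (adjusted p = 0.00832). With DESeq2 the adjusted p was 0.0165, and Thbs4 passed in 8 of 19 alternatives. Spon2 rose 5.21-fold with an adjusted p of 0.0212, with 28.1, 25 and 8.47 CPM in Beclin1_KO and 2.37, 6.7 and 2.71 CPM in WT. It missed the threshold without Beclin1_KO replicate 1 (0.0533), Beclin1_KO replicate 2 (0.0605), WT replicate 1 (0.0684) or WT replicate 3 (0.0816), and its log2 fold change of 2.38 became 3.0 without WT replicate 2. Spon1 had 15.8 to 18.5 CPM in Beclin1_KO and 12.6 to 14.3 CPM in WT and lay just outside the threshold (log2 fold change 0.36, SE 0.12, adjusted p = 0.0501). It passed in 6 of 19 alternatives, over which the adjusted p ranged from 0.00963 to 0.171.

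Among basement membrane genes, the laminin chains diverged. Lama2, the alpha chain of laminins around muscle fibres and Schwann cells, had 124, 158 and 95.6 CPM in Beclin1_KO, against 31.7, 30.3 and 26.0 CPM in WT. It rose 4.29-fold (log2 fold change 2.1, SE 0.20, adjusted p = 0.000359), and without the muscle-richest library of each group the log2 fold change was 2.14. Lama4, the alpha chain of vessel and adipocyte laminins, had 111, 131 and 138 CPM in Beclin1_KO and 139, 127 and 154 CPM in WT, with overlap (log2 fold change -0.15, SE 0.13, adjusted p = 0.402, and 0.20 on the log2(FPKM + 0.1) scale). Lama5, an alpha chain of vessels and epithelia, had 89.1, 75.1 and 93.1 CPM in Beclin1_KO and 151, 119 and 123 CPM in WT. It fell 1.53-fold without overlap (log2 fold change -0.61, SE 0.14, adjusted p = 0.0116), but on the FPKM scale it did not pass (log2 fold change -0.23, adjusted p = 0.21). Lama3, an epithelial chain, was near 0 in both groups, at 0.702 to 1.72 CPM in Beclin1_KO and 1.5 to 1.92 CPM in WT (adjusted p = 0.522).

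The beta chain gene Lamb1 had 395, 524 and 630 CPM in Beclin1_KO, against 298, 226 and 253 CPM in WT (log2 fold change 0.99, SE 0.21, adjusted p = 0.00788). Lamb2, the beta chain of synaptic and vascular laminins, had 210, 209 and 209 CPM in Beclin1_KO and 231, 185 and 180 CPM in WT. Lamb1 rose 1.99-fold, whereas the groups of Lamb2 overlapped (log2 fold change 0.07, SE 0.13, adjusted p = 0.679). On the log2(FPKM + 1) scale Lamb2 passed, at a log2 fold change of 0.42 (adjusted p = 0.0492). The gamma chain gene Lamc1, shared by most laminins, had 335, 323 and 291 CPM in Beclin1_KO and 188, 213 and 188 CPM in WT, a 1.61-fold rise (adjusted p = 0.00407).

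Within each library, the alpha chain composition shifted. Lama2 made up 32.7%, 36.5% and 24% of the summed FPKM of the alpha chain genes in Beclin1_KO, against 8.22%, 8.97% and 6.85% in WT. Lama4 held the largest part in every library, 46.9% to 55.7% in Beclin1_KO and 58.0% to 65.2% in WT. Lama5 held 14.8% to 20.04% in Beclin1_KO and 27.6% to 33.4% in WT. None of these 3 shares overlapped between the groups. Among beta chains, Lamb1 held 69.9% ± 5.14 in Beclin1_KO and 54.7% ± 1.67 in WT, and Lamb2 29.8% ± 4.92 in Beclin1_KO and 43.1% ± 1.83 in WT (SD, n = 3 each). Lamb3, not a member of the list and a chain of epithelial laminin, fell to 1.60 ± 0.865 CPM in Beclin1_KO, against 7.09 ± 0.853 CPM in WT. The gamma chain shares overlapped between the groups, with Lamc1 at 81.0% ± 1.69 in Beclin1_KO and 83.3% ± 3.85 in WT. Lamc3 held 16.9% ± 2.41 in Beclin1_KO and 15.4% ± 3.34 in WT. No test was made of these shares, which do not depend on the scaling between libraries.

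**Figure D4:**
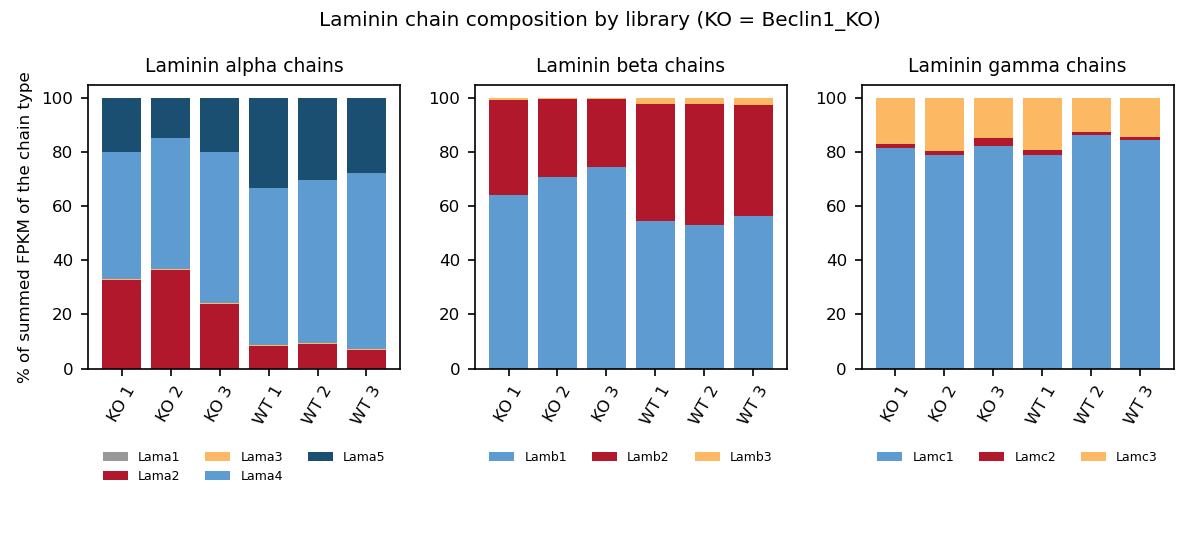
Share of each laminin gene in the summed FPKM of its chain type (alpha, beta or gamma, percent), 1 stacked bar per library with Beclin1_KO on the left. Lama2 takes 24% to 36.5% of alpha chain FPKM in Beclin1_KO and 6.85% to 8.97% in WT, while the gamma chain bars look alike.

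Both nidogen genes, whose products link the laminin and collagen networks, rose by nearly the same factor. Nid1 had 384, 412 and 319 CPM in Beclin1_KO and 173, 179 and 176 CPM in WT, a 2.12-fold rise (adjusted p = 0.000987). Nid2 had 50.5, 51.3 and 47.8 CPM in Beclin1_KO and 22.8, 22.8 and 19.9 CPM in WT, a 2.28-fold rise (log2 fold change 1.19, SE 0.10, adjusted p = 0.000249). Hspg2, which encodes perlecan, the heparan sulfate proteoglycan of basement membranes, had 812, 804 and 806 CPM in Beclin1_KO and 929, 773 and 808 CPM in WT. The knockout values lay inside the WT range (log2 fold change -0.05, SE 0.14, adjusted p = 0.783, and 0.30 on the log2(FPKM + 0.1) scale). Npnt, a ligand of an integrin in epithelial basement membranes, had 3.94, 3.57 and 3.70 CPM in Beclin1_KO and 4.32, 5.11 and 4.2 CPM in WT. It was lower in every knockout library but did not pass (log2 fold change -0.28, SE 0.19, adjusted p = 0.26).

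Frem1 and Fras1 encode large proteins of one complex that anchors embryonic epithelium to the tissue beneath. Frem1 had 30.2, 31.6 and 11.7 CPM in Beclin1_KO, against 0.193, 0.246 and 0 CPM in WT. In counts these were 1664, 2026 and 792 in Beclin1_KO and 8, 11 and 0 in WT, so the log2 fold change of 7.35 (SE 0.90, adjusted p = 0.00159) rests on few WT counts. Leaving out single libraries gave 6.77 (without WT replicate 3) to 7.95 (without WT replicate 2). It was 8.0 with limma-voom, 4.59 on the log2(FPKM + 0.1) scale and 1.86 on the log2(FPKM + 1) scale. Fras1 stayed near the limit of detection, with 30, 8 and 18 counts in Beclin1_KO and 0, 16 and 4 counts in WT (adjusted p = 0.493). The epithelial markers Krt8, Krt18 and Epcam were at or near 0 in every library.

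**Figure D5:**
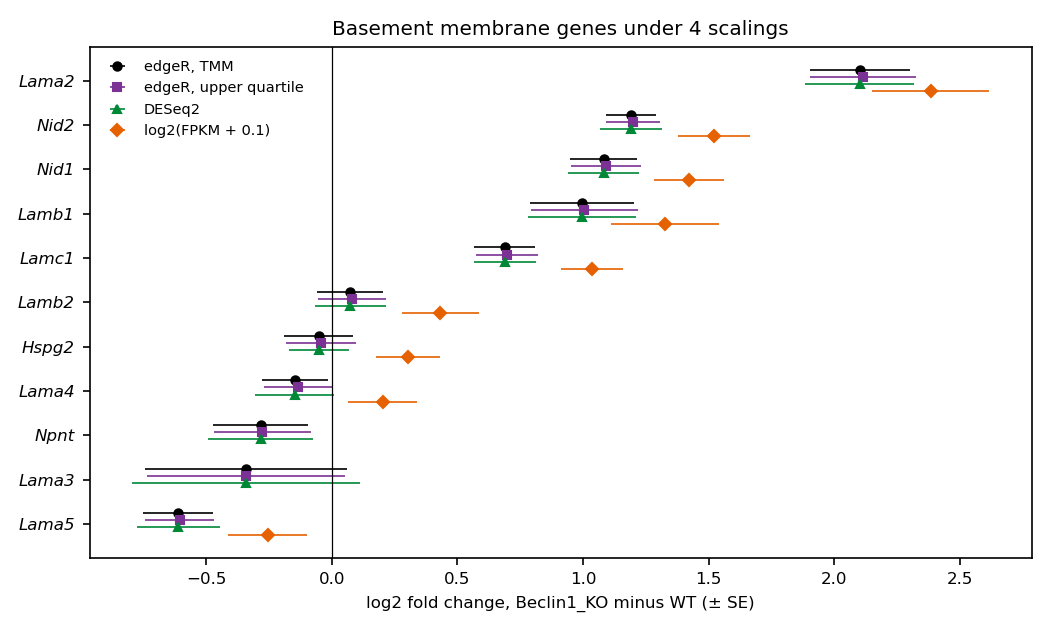
Log2 fold change (Beclin1_KO minus WT, ± SE) of 11 basement membrane genes in 4 fits, by edgeR with TMM or upper-quartile factors, by DESeq2, and by limma on log2(FPKM + 0.1). Frem1 and Fras1 are not drawn, and Npnt and Lama3 have no FPKM point; the 3 count fits coincide, and the FPKM fit lies to their right for every gene drawn, which moves Hspg2 and Lama4 across 0.

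The order of transcripts by level also differed. By mean FPKM, the leading 5 genes in Beclin1_KO were Dcn (618 ± 219), Sparc (447 ± 64.9), Postn (339 ± 181), Bgn (287 ± 38.3) and Lum (266 ± 97.9). Given these SDs (n = 3 each), neighbours in that order did not stand apart. In WT, Sparc led with 226 ± 11.5 FPKM, and Prelp (106 ± 23.3), Postn (68.9 ± 24.6), Dcn (60.9 ± 14.5) and Hspg2 (51.4 ± 7.50) followed. Sparc was above the other WT genes by more than the spread, while Postn, Dcn and Hspg2 overlapped. Lum ranked 5 in Beclin1_KO and 17 in WT, and Fn1 ranked 6 in Beclin1_KO and 22 in WT.

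Promoter sequences are shown for 4 genes at different ends of the change: Bgn and Lama2, which rose, and Lama5 and Ltbp2, the pair that fell. They are RefSeq promoters of build GRCm38.p6, from 250 bases before to 50 bases after the first listed start, and 32 of the 51 genes had an entry. Bgn lies at chrX:73483351-73483650, plus strand. Lama2 lies at chr10:27616893-27617192, minus strand. Nearly all of that window is inside the RefSeq span of the gene (26981285 to 27617191), so the Lama2 sequence is not mainly upstream of the gene. Lama5 lies at chr2:180225810-180226109, minus strand, and Ltbp2 at chr12:84876442-84876741, minus strand. Capitals mark matches, on either strand, to GGGCGG, the core of the GC box; overlapping matches run together.
Bgn: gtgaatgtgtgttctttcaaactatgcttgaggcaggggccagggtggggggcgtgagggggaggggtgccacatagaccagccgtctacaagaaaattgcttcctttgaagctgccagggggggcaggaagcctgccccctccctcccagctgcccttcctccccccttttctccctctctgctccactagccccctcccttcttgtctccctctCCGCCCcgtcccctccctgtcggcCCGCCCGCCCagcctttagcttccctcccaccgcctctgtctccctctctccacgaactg
Lama2: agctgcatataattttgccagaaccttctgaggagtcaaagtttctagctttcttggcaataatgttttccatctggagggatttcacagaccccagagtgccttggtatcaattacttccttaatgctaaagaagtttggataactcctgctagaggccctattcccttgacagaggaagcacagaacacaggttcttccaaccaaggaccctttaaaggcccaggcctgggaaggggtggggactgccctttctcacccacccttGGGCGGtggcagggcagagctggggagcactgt
Lama5: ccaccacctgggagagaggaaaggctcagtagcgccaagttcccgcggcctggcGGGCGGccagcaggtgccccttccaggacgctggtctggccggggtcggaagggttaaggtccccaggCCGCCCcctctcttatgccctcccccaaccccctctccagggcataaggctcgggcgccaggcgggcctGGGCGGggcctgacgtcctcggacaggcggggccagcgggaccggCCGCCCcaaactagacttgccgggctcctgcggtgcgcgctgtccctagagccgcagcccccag
Ltbp2: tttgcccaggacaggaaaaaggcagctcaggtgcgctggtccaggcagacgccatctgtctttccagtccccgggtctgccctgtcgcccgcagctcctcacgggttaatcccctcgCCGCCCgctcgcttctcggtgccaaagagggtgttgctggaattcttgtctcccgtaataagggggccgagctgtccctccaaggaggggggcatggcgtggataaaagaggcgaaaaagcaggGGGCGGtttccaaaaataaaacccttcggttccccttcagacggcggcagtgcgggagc
GGGCGG was found in 56.2% of the 32 promoters (6 of 8 basement membrane and 12 of 24 interstitial genes), against 35.9% of 27025 promoters of the same length. These 27025 were not limited to the 18507 genes of the deposited table, so the sets compared are unlike. TATAAA was found in 15.6% of the 32 (5 interstitial and 0 basement membrane genes), against 14.2% of all. TGANTCA, the AP-1 motif, was found in 6.25% against 7.93%, and GGAATG, the core of the TEAD motif, in 9.38% against 14.6%. The 4 promoters shown hold none of these last 3 motifs. A match is only a match of letters in this window.

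Other matrix genes, taken from lists written with earlier results of these data known, are given for comparison. Over all 15347 genes tested, 24.8% rose and 21.8% fell, with a median log2 fold change of 0.05. Of 22 further basement membrane genes in the table, 6 rose, 4 fell, 10 did not pass and 2 were too low to test. Their median log2 fold change was 0.04, so this list lay near all genes tested. Col18a1, a vascular basement membrane collagen, had 431 ± 113 CPM in Beclin1_KO and 55.5 ± 9.86 CPM in WT, and Col15a1 had 603 ± 166 CPM in Beclin1_KO and 126 ± 21.5 CPM in WT (SD, n = 3 each). The calcium-binding Smoc1 fell to 36.5 ± 6.24 CPM in Beclin1_KO, against 119 ± 7.0 CPM in WT, and the peroxidase Pxdn fell to 77.3 ± 16.5 CPM in Beclin1_KO, against 156 ± 15.2 CPM in WT. Of 36 further interstitial genes, 21 rose, 2 fell (Ltbp3 and Ltbp4), 12 did not pass and 1 was too low to test, with a median of 1.17. Pcolce, an enhancer of procollagen processing, had 347 ± 38.1 CPM in Beclin1_KO and 69.7 ± 3.29 CPM in WT. Efemp2, a fibulin of elastic fibres, had 57.3 ± 5.24 CPM in Beclin1_KO and 17.8 ± 0.0945 CPM in WT.

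Of 26 matrix receptors, 14 rose, 4 fell, 7 did not pass and 1 was too low to test, with a median log2 fold change of 0.77. The shares over all genes tested were 24.8% that rose and 21.8% that fell. The collagen receptor genes Mrc2 and Ddr2 rose. Mrc2 had 116 ± 21.9 CPM in Beclin1_KO and 23.1 ± 0.740 CPM in WT, and Ddr2 had 136 ± 18.9 CPM in Beclin1_KO and 33.2 ± 4.34 CPM in WT. The integrin subunit genes Itga1 and Itga6, whose receptors bind collagen and laminin, fell. Itga1 had 19.7 ± 2.94 CPM in Beclin1_KO and 51 ± 2.0 CPM in WT, and Itga6 had 65.8 ± 4.03 CPM in Beclin1_KO and 105 ± 8.61 CPM in WT. Of 25 genes that build glycosaminoglycan chains, 15 rose, B3gat3 fell and 9 did not pass, with a median of 0.62. The fall of B3gat3 was near the threshold (adjusted p = 0.0467). Its groups overlapped in FPKM, at 42.0 ± 2.43 in Beclin1_KO and 43.2 ± 8.27 in WT. Dse, which makes dermatan sulfate of the kind carried by decorin and biglycan, had 56.4 ± 14.2 CPM in Beclin1_KO and 9.04 ± 0.788 CPM in WT, and Chsy1, a chondroitin synthase, had 28.7 ± 3.55 CPM in Beclin1_KO and 11.9 ± 0.278 CPM in WT (SD, n = 3 each).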

How the data were processed

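RNA of 6 brown adipose tissue samples was sequenced from TruSeq Stranded mRNA libraries, per the labels' protocols. Build mm10 is named in the submitters' processing notes, beside StringTie 1.3.4d, HISAT2 2.1.0, Trimmomatic, bcl2fastq 2.20.0 and DESeq2, without roles. The annotation, and any use of strand in counting, are not given in the sources used here. Per the file headers, the authors deposited raw read counts per gene, and FPKM values scaled by transcript length and fragments per library. A further 6 per-sample columns were not used.

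Counts were tested with edgeR 4.0.16 (R 4.3.3): filterByExpr left 15347 genes, TMM factors were applied, and a robust quasi-likelihood fit with genotype as the only term gave log2 fold changes, Beclin1_KO minus WT. SE was taken as the size of the log2 fold change over the root of F, and p-values were adjusted over all genes by Benjamini-Hochberg. The procedure was also run on counts simulated with the same dispersion for every gene, which checks the code and not the results given here. With 3 libraries per group the p-values reflect the spread between these samples.

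The 51 genes, their compartments, the comparison lists and the alternatives were chosen with earlier results of these data known. Per-library values were set for the 2 genes of each group with the highest FPKM, the 2 with the smallest p per direction and every gene that fell, and for 2 genes per direction in the comparison lists. The per-library values of other members, and Ltbp3, Ltbp4 and Lamb3, were picked after their values were seen. Same-numbered samples are not said to be paired. Correlations of their deviations were -0.40, 0.02 and 0.40, against -0.56 to 0.57 for the other pairs. With 3 libraries per group these values cannot decide whether samples were paired. Positions and promoters came from RefSeq, GRCm38.p6. In GENCODE M21, exons of Fbn1, Loxl3 and Ltbp2 overlap genes on the opposite strand over 20.3%, 13.1% and 11.3% of their length, and those of Prelp and Nid2 over 9.68% and 8.96%, so their reads are uncertain if strand was not used. Alternatives used DESeq2 1.42.0 and limma 3.58.1.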

Additional observations from a re-analysis of the deposited data

How the results depend on the processing

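The 37 rises and 2 falls kept their direction in every alternative fit that held the gene (19, or 17 for Loxl4 and Comp), but not every call. The fits gave 33 to 41 rises, against 37, and 1 to 3 falls, against 2. On the FPKM scale, with pseudocounts of 1 and 0.1, 41 genes rose and 1 fell by limma, where 4899 (pseudocount 1) and 4890 (0.1) of 12463 genes rose and 1706 and 1696 fell. Lama3, Npnt, Fras1, Loxl4 and Comp were too low in FPKM to be fitted there. Of the falls 0 were basement membrane genes (0 also at an unadjusted p below 0.05), against 1, Lama5, by edgeR and by DESeq2. There the median difference, basement membrane minus interstitial, was -0.77 with a pseudocount of 1 and -1.03 with 0.1, against -1.32 in the counts. The cause was not tested. With the replicate number as a block, 36 rose and 3 fell, of which 2 were interstitial (Ltbp2 and Prelp), and Eln did not pass (adjusted p = 0.072). In that fit 3371 of 15347 genes rose and 3032 fell. Leaving out 1 library gave 33 to 38 rises and 2 to 3 falls, with 1 to 2 interstitial falls, the 2 without Beclin1_KO replicate 3. Over the 15500 to 15722 genes tested in those fits, 2983 to 3790 rose and 2492 to 3439 fell. Without the muscle-richest library of each group 35 rose, 29 of them interstitial, and Aspn, Postn and Sparc did not pass. Of all 15429 genes in that fit, 2860 rose and 2054 fell. With all 6 libraries kept and the log2 sum of the muscle markers as a covariate, 39 rose, 33 of them interstitial, and 2 fell. There 3630 of 15347 genes rose and 3097 fell. Aspn and Postn each passed in 18 of 19 alternatives.

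Signs turned for Lama4 (log2 fold change 0.19 and 0.20) and Hspg2 (0.30 and 0.30) on the FPKM scale, and for Lamb2 without WT replicate 3 (-0.011, and up to 0.16 without WT replicate 1). None passed there. Low genes moved on the log2(FPKM + 1) scale, Fmod to 2.13 (against 3.67) and Fbln1 to 1.6 (against 2.56). Over the 51 genes and their alternatives, 899 results kept side and direction, 29 gained a call, 24 lost it and 5 turned. The log2 ratio of basement membrane to interstitial FPKM differed by -1.13, Beclin1_KO minus WT (-1.38 to -1.02 over its alternatives). The assignment of genes to compartments was also changed. With laminins, nidogens and perlecan alone as basement membrane, the median difference in the counts was -1.63. With Sparc, Fbln1 and Fbln2 moved to the basement membrane genes it was -1.24, against -1.32.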
